A study of Rattus norvegicus with 24 samples.

Results

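The rat Gnas locus carries the genes of a pair of microRNA (miRNA) hairpins, Mir296 and Mir298, and their mature products were followed through the small RNA libraries of a study of hepatectomy surgery and electroacupuncture (EA). The members were chosen by name, with their counts by nucleus and treatment in view, so the difference between the nuclei is given as a description. The treatment comparisons are also not independent of that choice, and their p-values and calls are printed only to place the members in the fit over all miRNAs, with nothing supported by them. Of the 4 listed miRNAs, 3 had counts, miR-298-5p, miR-298-3p and miR-296-3p, among 1098 miRNAs in all (703 known and 395 predicted). miR-296-5p was not analysed here. The study itself had picked miR-296-3p from these same libraries as changed by EA in the PVN, so its values in that comparison are not independent evidence.

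The 24 libraries came from a hypothalamic nucleus, the PVN, which the study writes out as periventricular nucleus, and from the central amygdala (CEA) of male Sprague-Dawley rats. There were 3 libraries for each nucleus and treatment. The rats were 7 weeks old when bought and were then adapted for a week before the experiment. The labels name the tissue only as brain, and the nucleus stands in the sample names. Normal control (NC) rats had no operation and were restrained for the same time as the others. HT rats had partial hepatectomy, a resection of some 20% of the left lobe. HT + EA rats also had electrical stimulation through needles at ST 36 and SP 6, at 2/15 Hz for 30 min, 24 h before and right after the operation. HT + SEA rats had the needles without current. The brains were sampled 24 h later. All rats had been habituated to the restraint beforehand. The methods give 12 rats in 4 groups and say that brain samples were taken from different animals of one batch. Which libraries, if any, share a rat is not clear from this, nor what libraries with the same number share, so p-values measure the spread between these libraries, which may in part be technical.

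A miRNA is cut from a hairpin in its precursor RNA, and either arm, 5p or 3p, can be loaded into an Argonaute protein. The loaded strand then pairs with messenger RNAs mainly through its seed, bases 2 to 8, and lowers their translation and stability. Gnas encodes the stimulatory G protein alpha subunit, which couples hormone receptors to adenylyl cyclase. The locus is imprinted, meaning that some of its transcripts come from one parental copy only, and in the mouse Mir296 and Mir298 are made from the paternal copy together with the antisense transcript Nespas.

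The mature sequences are shown because the seed decides which messenger RNAs a miRNA can pair with, and because reads can be told apart only where sequences differ. They are from RefSeq (build GRCr8), 5′ to 3′, with the seed in capitals.
rno-miR-296-5p: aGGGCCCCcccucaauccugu
rno-miR-296-3p: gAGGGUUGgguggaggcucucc
rno-miR-298-5p: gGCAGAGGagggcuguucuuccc
rno-miR-298-3p: aGGAACUAgccuucucucugcu
The 4 seeds differ from each other, and no other mature miRNA in the RefSeq table, which holds 693 names, has any of them. The longest run of bases shared with any other mature miRNA was 9 (miR-296-3p with miR-137-5p, miR-298-3p with miR-3583-3p). No other miRNA had counts identical to a member's in every library. None had differences from a member that, summed over the libraries, came to 5% or less of that member's total. GC content was 68.2% for miR-296-3p, 65.2% for miR-298-5p and 50% for miR-298-3p.

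The hairpins show how close the members lie. Both are on the minus strand of chromosome 3, with Mir298 at chr3:183470522-183470603 and Mir296 at chr3:183470069-183470146 (GRCr8), 375 bases apart. Among RefSeq genes their neighbours are Npepl1 on one side and Gnas on the other, and Gnas is on the plus strand. The mature arms are in capitals.
Mir298: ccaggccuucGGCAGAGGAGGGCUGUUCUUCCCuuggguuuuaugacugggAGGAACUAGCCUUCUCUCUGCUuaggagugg
Mir296: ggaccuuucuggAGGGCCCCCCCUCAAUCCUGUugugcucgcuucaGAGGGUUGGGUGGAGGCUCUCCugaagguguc
The 5p arm of Mir298 fills bases 11 to 33 and its 3p arm bases 52 to 73 of 82. In Mir296 the arms fill bases 13 to 33 and 47 to 68 of 78. Folded with RNAfold, Mir298 had 33 base pairs and a minimum free energy of -47.8 kcal/mol, and Mir296 had 30 pairs and -40.5 kcal/mol.

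Each PVN library held between 6584345 and 14828269 counts, and each CEA library between 9463321 and 14913564. Levels below are CPM, a miRNA's count scaled to the total of its library. The TMM factors, which correct totals for composition, were between 0.976 and 1.06 except in CEA HT replicate 1, at 0.822. Of the marker miRNAs checked, miR-7a-5p, abundant in hypothalamic neuroendocrine neurons, was at 124600 to 156800 CPM in the PVN and 21970 to 49400 CPM in the CEA. The neuron miRNAs miR-124-3p, miR-9a-5p and miR-128-3p summed to 102600 to 116300 CPM in the PVN and 137300 to 161700 CPM in the CEA. The ciliated-cell miRNAs miR-449a-5p, miR-34b-5p and miR-34c-5p summed to 2269 to 3918 CPM in the PVN and 188 to 1123 CPM in the CEA. Nearly all of that sum was miR-34c-5p, with means of 2821 and 671 CPM. miR-34b-5p overlapped between the nuclei (12.4 to 27.4 and 0.577 to 13.4 CPM). The mean of miR-449a-5p was lower in the PVN (1.72 against 2.10 CPM). The endocrine miRNA miR-375-3p was at 76.4 to 139.6 CPM in the PVN and 2.88 to 36.4 CPM in the CEA. Of 23 markers, 7 did not overlap between the nuclei, 4 of them higher in the PVN like the members (miR-7a-5p, miR-7b, miR-34c-5p and miR-375-3p), and their part in the members' difference was not tested. The liver miRNA miR-122-5p was at 12.4 CPM in PVN HT replicate 1 and at no more than 2.45 CPM in any other library. No marker was at 0 in all libraries of a nucleus.

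miR-298-5p was the most abundant member in both nuclei and the one with the widest gap between them. In the PVN it was at 218, 203 and 190.5 CPM in NC, 197, 190 and 140 CPM in HT, 220, 220 and 206 CPM in HT + EA, and 231, 195 and 236 CPM in HT + SEA. In the CEA it was at 53.5, 31.7 and 21.6 CPM in NC, 24.1, 45.2 and 21.1 CPM in HT, 49.3, 53.6 and 54.3 CPM in HT + EA, and 51.6, 34.0 and 44.7 CPM in HT + SEA. The lowest PVN library lay above the highest CEA library, and within the CEA the NC and HT groups were the most scattered. The means were 204 ± 25.3 CPM in the PVN and 40.4 ± 13.1 CPM in the CEA (SD, n = 12). The fitted log2 fold change, PVN minus CEA with treatment as a covariate, was 2.32 (SE 0.12), a fold of 4.995. By mean level it was number 179 of 1098 miRNAs in the PVN and number 263 in the CEA.

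miR-298-3p, the other arm of the same hairpin, was lower in every library. It was at 19.7 to 26.6 CPM in the PVN and 4.12 to 12.1 CPM in the CEA. The means were 23.3 ± 2.44 and 8.32 ± 2.33 CPM (SD, n = 12), and the log2 fold change was 1.46 (SE 0.11), a fold of 2.76. In the PVN it varied least of the members, with a coefficient of variation of 10.5% over 12 libraries.

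miR-296-3p was the least abundant member and rests on few reads in the CEA. It had 45 to 174 counts in the PVN libraries and 10 to 50 in the CEA libraries, or 6.11 to 12.9 CPM and 0.739 to 3.73 CPM. The lowest value, 10 counts in CEA HT replicate 3, has an exact Poisson 95% interval of 0.354 to 1.36 CPM, which covers counting error only. The means were 8.84 ± 2.03 and 2.21 ± 0.855 CPM (SD, n = 12), and the log2 fold change was 1.98 (SE 0.16), a fold of 3.94.

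For all 3 members every PVN library lay above every CEA library, which held for 7.47% of the 1098 miRNAs. Since the members were chosen with these levels known, nothing is read from that count. Within single treatments, the log2 fold change of miR-298-5p between the nuclei was 2.49 in NC, 2.41 in HT, 2.004 in HT + EA and 2.31 in HT + SEA. In the same order miR-296-3p gave 2.27, 2.15, 1.80 and 1.70, and miR-298-3p gave 1.56, 1.65, 1.37 and 1.23. The gap was present in each treatment. In tissue of this kind, fewer cells that make a miRNA and less of it per cell cannot be told apart.

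**Figure D1:**
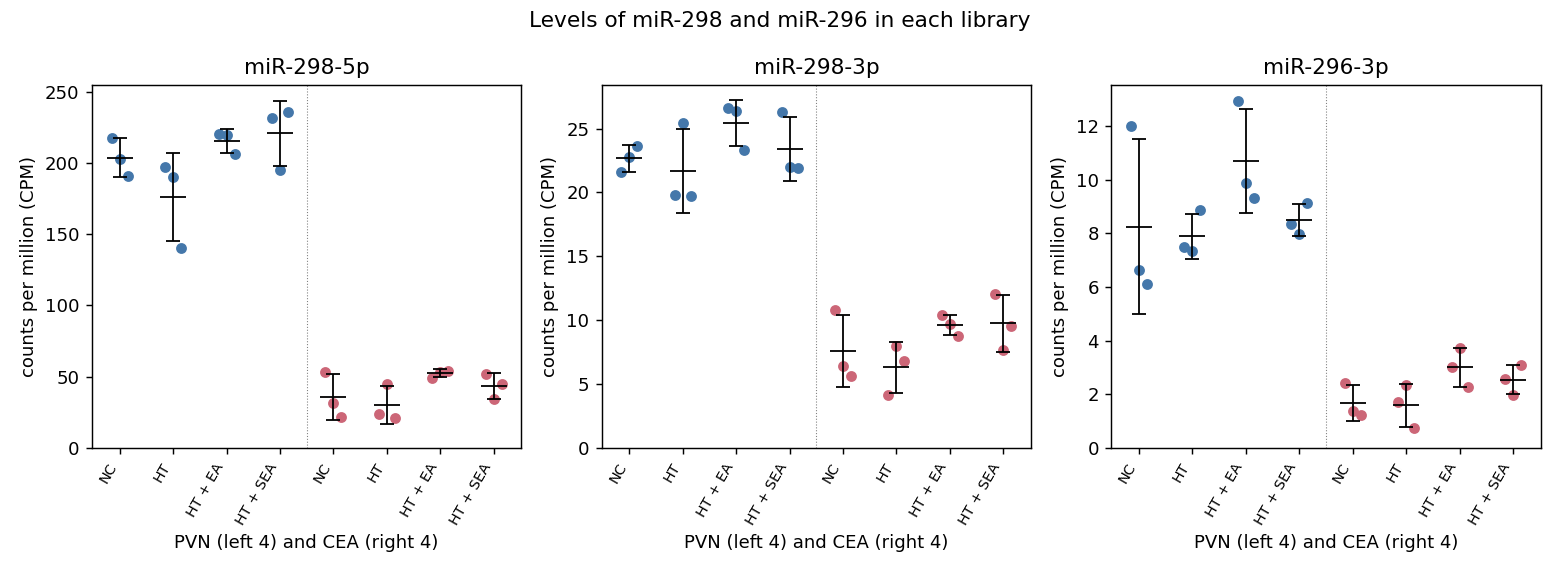
CPM (y axis, linear from 0) of miR-298-5p, miR-298-3p and miR-296-3p in the 24 libraries, by treatment (x axis) in the PVN (blue) and the CEA (red). Points are libraries, horizontal bars means and error bars SD (n = 3), and for each member the lowest PVN point lies above the highest CEA point.

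The arms of miR-298 did not keep one ratio in both nuclei. The 5p arm took 89.7% ± 1.11 of the reads of both arms in the PVN and 82.5% ± 2.89 in the CEA (SD, n = 12). The PVN libraries ran from 87.7% to 91.5% and the CEA libraries from 75.7% to 86.1%, so they did not overlap. The lowest library, CEA HT replicate 3, had 286 of 378 reads on the 5p arm, with a Wilson 95% interval of 71.1% to 79.7%. The highest CEA library, HT + EA replicate 3, had 810 of 941 reads, with an interval of 83.7% to 88.1%. By treatment the means in the PVN were 89.9% in NC, 88.9% in HT, 89.4% in HT + EA and 90.4% in HT + SEA. In the CEA they were 82.0% ± 2.17 in NC, 82.0% ± 5.49 in HT, 84.5% ± 1.74 in HT + EA and 81.7% ± 0.692 in HT + SEA (SD, n = 3), and the range of HT covered that of NC and HT + SEA. The share needs no scaling between libraries, but it uses the same reads as the levels above and was given no test. It follows from the folds of the 2 arms between the nuclei, 4.995 for 5p and 2.76 for 3p. For how many other hairpins the share separates the nuclei was not computed, so nothing particular to miR-298 is read from it. The corresponding share for miR-296 was not analysed here.

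**Figure D2:**
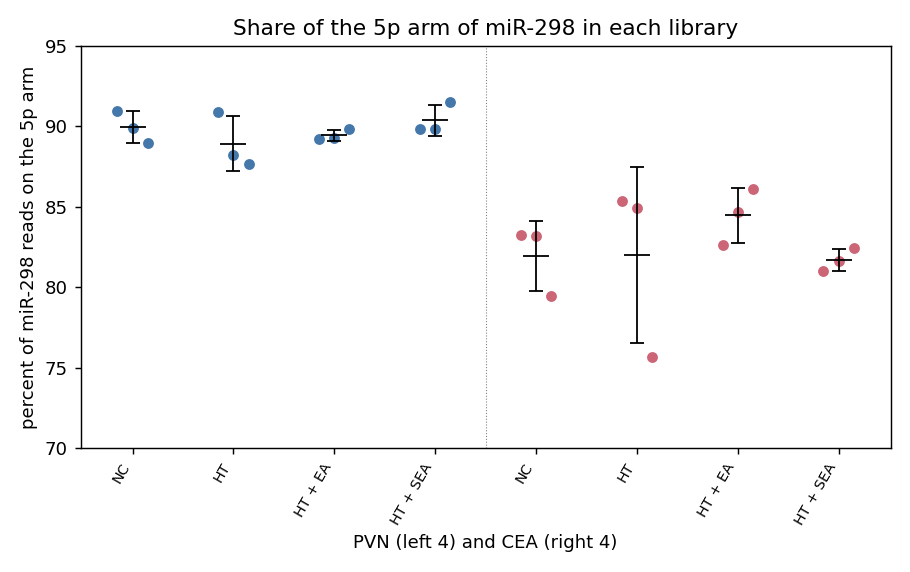
Percent of miR-298 reads that came from the 5p arm (y axis, not starting at 0) in the 24 libraries, by treatment (x axis) in the PVN (blue) and the CEA (red). Points are libraries, horizontal bars means and error bars SD (n = 3), and the PVN libraries, at 87.7% or more, all lie above the CEA libraries, at 86.1% or less.

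Across the hairpins, miR-298-5p had 23.9 ± 5.01 reads for each read of miR-296-3p in the PVN and 19.2 ± 4.45 in the CEA (SD, n = 12). The libraries ran from 15.8 to 31.2 and from 13.9 to 28.6, so these ranges overlapped. Ligation and amplification differ between small RNAs, so the ratio compares reads and not molecules.

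The first treatment question was whether surgery changed the members. A miRNA was called at an unadjusted p under 0.05 in edgeR's quasi-likelihood test, the threshold the study used, and the Benjamini-Hochberg adjusted p over all miRNAs tested is given beside it. In the PVN, 0 of 3 members were called for HT against NC, where 10.9% of 986 miRNAs were called. miR-298-5p had a log2 fold change of -0.24 (SE 0.17, adjusted p = 0.765 by edgeR), and the groups overlapped. Of the 23 markers, 9 did not overlap between these groups, with miR-128-3p, miR-338-3p and miR-449a-5p higher and miR-223-3p, miR-451-5p, miR-486, miR-206-3p, miR-34c-5p and miR-375-3p lower in HT. In the CEA, 0 of 3 members were called against 3.82% of 996 miRNAs. There miR-298-5p had a log2 fold change of -0.19 (SE 0.24, adjusted p = 0.988 by edgeR), and 1 NC library and 1 HT library stood well above the others of their groups. There 1 marker did not overlap, miR-223-3p, lower in HT. With 3 libraries against 3, shuffled labels give a complete separation in either direction in a share of 0.1 of cases. The share of all miRNAs that separated in either direction was not computed. Marker counts here and below are therefore given as values only. The part of these markers was not tested.

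The next question was whether the members differed after EA. In the PVN, 2 of 3 members were called for HT + EA against HT, where 11.4% of 985 miRNAs were called. miR-296-3p was at 12.9, 9.89 and 9.31 CPM in HT + EA and 7.51, 7.33 and 8.87 CPM in HT. Its log2 fold change was 0.47 (SE 0.22), with an unadjusted p of 0.0362 and an adjusted p of 0.372 by edgeR. miR-298-5p had a log2 fold change of 0.32 (SE 0.14), with an unadjusted p of 0.036 and the same adjusted p. For both, every HT + EA library lay above every HT library, as did 7.72% of the miRNAs tested. miR-298-3p had a log2 fold change of 0.26 (SE 0.18), did not pass the unadjusted threshold, and its groups overlapped.

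These PVN calls did not pass adjustment and changed with the fit. With DESeq2, or with its size factors in edgeR, 0 of 3 members were called. The call of miR-296-3p was lost without HT + EA replicate 1 (log2 fold change 0.31), HT replicate 1 (0.48) or HT replicate 2 (0.42). That of miR-298-5p was lost without HT replicate 3 (0.14), and without HT + EA replicates 1 (0.30), 2 (0.28) or 3 (0.32). Sequencing depth moved with these groups, since the HT libraries had 8789556 to 11050725 counts and the HT + EA libraries 12134529 to 14828269. The hypothalamic markers miR-7a-5p and miR-7b summed to 139200 to 160100 CPM in HT and 149300 to 168900 CPM in HT + EA. Of the 23 markers, 5 did not overlap between these groups. The myeloid miRNA miR-223-3p was at 8.98 to 11.9 CPM in HT + EA and 1.02 to 1.54 CPM in HT, and the red cell miRNA miR-486 at 95.8 to 109 and 74.2 to 83.5 CPM. Lower in HT + EA were the neuron miRNA miR-128-3p (9155 to 9892 against 11730 to 13780 CPM), the oligodendrocyte miRNA miR-219a-5p (40.5 to 54.8 against 82.5 to 108 CPM) and the red cell miRNA miR-144-3p (6.46 to 7.75 against 12.2 to 16.4 CPM). The part of depth or of these markers in the difference was not tested. Without HT replicate 1, the library high in miR-122-5p, miR-298-5p had a log2 fold change of 0.45.

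In the CEA, 1 of 3 members was called for HT + EA against HT, where 5.28% of 1004 miRNAs were called. miR-298-5p was above its HT level in all 3 HT + EA libraries, with a log2 fold change of 0.67 (SE 0.23). Its unadjusted p was 0.00579 and its adjusted p 0.386 by edgeR. miR-298-3p had a log2 fold change of 0.49 (SE 0.28, adjusted p = 0.897 by edgeR), and miR-296-3p 0.78 (SE 0.41, with the same adjusted p). The HT + EA libraries of miR-298-5p and miR-298-3p lay above all HT libraries, as did those of 7.97% of the miRNAs tested, while those of miR-296-3p overlapped. Depth tended to be higher in HT + EA here too, at 13402373 to 14913564 counts against 9868383 to 13537987 in HT. These ranges overlapped, and the part of depth was not tested.

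The call of miR-298-5p in the CEA held under each of 7 other fits, at log2 fold changes of 0.66 to 0.80. It was lost without HT + EA replicate 2 (0.66) or HT replicate 3 (0.45). Without HT replicate 2, the HT library with the highest level, the log2 fold change was 0.97 and the adjusted p 0.0105 by edgeR. Without HT replicate 1, whose TMM factor stood apart, it was 0.62 with an adjusted p of 0.0966 by edgeR. Also without HT replicate 1, HT replicate 2 or HT + EA replicate 3, miR-296-3p passed the unadjusted threshold, at 0.97, 1.03 and 0.96.

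The comparisons of HT + SEA with HT used the same 3 HT libraries, so they are set beside those of HT + EA and are not independent of them. In the PVN, 1 of 3 members was called, against 8.3% of 1000 miRNAs. This was miR-298-5p, with a log2 fold change of 0.33 (SE 0.15), an unadjusted p of 0.0302 and an adjusted p of 0.521 by edgeR, and its groups overlapped. The call was lost with DESeq2 (0.32) or with the filterByExpr filter on low counts (0.30), and without HT replicate 3 (0.15), HT replicate 2 (0.35), HT + SEA replicate 1 (0.29) or HT + SEA replicate 3 (0.29). miR-296-3p and miR-298-3p had log2 fold changes of 0.12 each there. Of the 23 markers, 4 did not overlap between HT + SEA and HT in the PVN, miR-486 and miR-34c-5p higher and miR-128-3p and miR-133a-3p lower in HT + SEA. The HT + SEA libraries were also deeper, at 13059380 to 13897929 counts against 8789556 to 11050725 in HT, and the part of depth or markers was not tested. In the CEA, 0 of 3 members were called, against 4.7% of 999 miRNAs, with log2 fold changes of 0.44 for miR-298-5p, 0.55 for miR-298-3p and 0.58 for miR-296-3p. Without HT replicate 2, miR-298-5p passed the unadjusted threshold there, at 0.75. Without HT + SEA replicate 2, miR-298-5p and miR-298-3p passed it, at 0.58 and 0.69. In the CEA, 2 markers did not overlap, both higher in HT + SEA, miR-223-3p (1.38 to 18.99 against 0.886 to 0.912 CPM) and miR-206-3p (19.3 to 35.0 against 13.7 to 17.2 CPM), and their part was not tested.

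The direct comparison of HT + EA with HT + SEA asked whether the current made a difference beyond the needles. In the PVN, 0 of 3 members were called, against 7.14% of 994 miRNAs. miR-296-3p was at 8.35, 7.99 and 9.15 CPM in HT + SEA, below all 3 HT + EA libraries, as happened for 5.43% of miRNAs. Its log2 fold change was 0.32 (SE 0.17, adjusted p = 0.707 by edgeR). It passed the unadjusted threshold without HT + EA replicate 2 (0.38) or 3 (0.43). Of the 23 markers, 6 did not overlap between these groups, miR-1-3p, miR-133a-3p and miR-122-5p higher and miR-124-3p, miR-219a-5p and miR-144-3p lower in HT + EA, and their part was not tested. miR-298-5p had a log2 fold change of -0.04 (SE 0.10). In the CEA, 0 of 3 members were called, against 2.24% of 1026 miRNAs, and miR-298-5p had a log2 fold change of 0.24 (SE 0.19). There 2 markers did not overlap, miR-142-3p and miR-34b-5p, both lower in HT + EA.

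**Figure D3:**
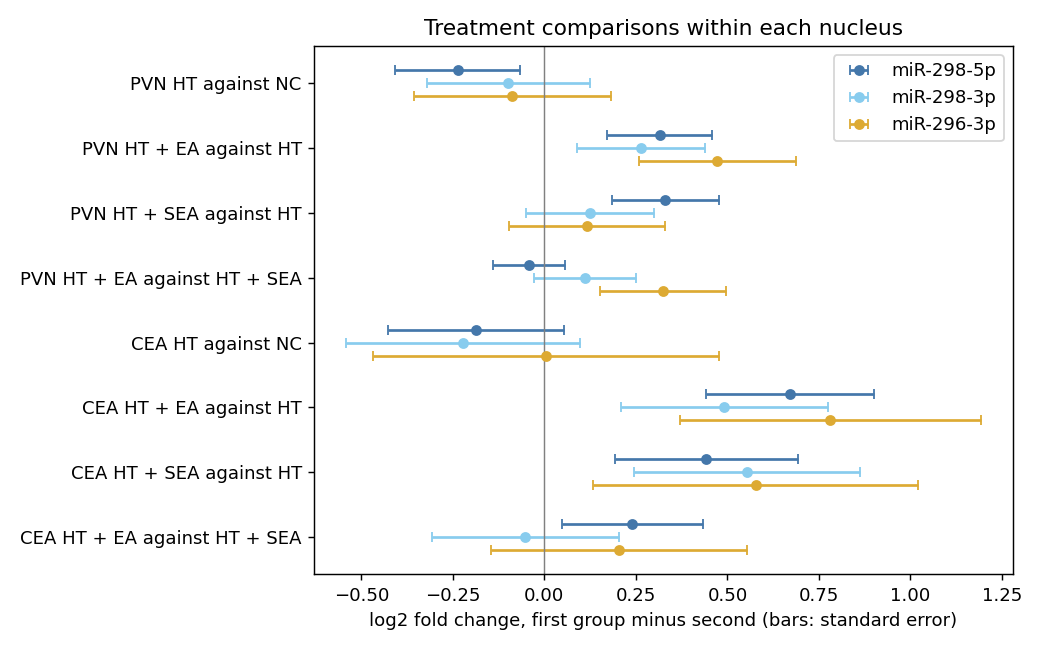
Log2 fold change (x axis, first group minus second) of each member in the 8 treatment comparisons (y axis) from edgeR, with standard errors as bars. The largest value is that of miR-296-3p for CEA HT + EA against HT (0.78), and no value had an adjusted p under 0.05.

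Whether the effects differed between the nuclei was tested as an interaction over 12 libraries. For the effect of HT, 0 of 3 members were called, against 4.98% of 1064 miRNAs. For the effect of EA, 0 of 3 members were called, against 1.9% of 1051 miRNAs. For miR-298-5p the EA effect in the PVN minus that in the CEA was -0.41 on the log2 scale (SE 0.28). It passed the unadjusted threshold without CEA HT replicate 2, at -0.63, with an adjusted p of 0.919 by edgeR.

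The miRNA whose pattern lay nearest to that of miR-298-5p was miR-7a-5p. Likeness was the root mean square difference of centred log2 CPM over the 24 libraries, among 363 known miRNAs with a mean of at least 10 CPM. It was 0.310 for miR-7a-5p, 0.354 for miR-135a-3p, 0.377 for miR-666-5p, 0.386 for miR-135a-5p and 0.401 for miR-770-3p, with a median of 1.26 over all. miR-666-5p and miR-770-3p come from another imprinted locus, Dlk1-Dio3. For the other members the difference from miR-298-5p was 0.348 for miR-296-3p, whose mean was below that minimum, and 0.490 for miR-298-3p. All of these were higher in the PVN, and the measure is dominated by that gap.

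Within the CEA, the lowest libraries of the members were also those of miR-7a-5p, while the order above them differed. The 4 CEA libraries lowest in miR-7a-5p, NC replicates 2 and 3 and HT replicates 1 and 3, were the same 4 that were lowest in each of the 3 members. How many other miRNAs share these 4 was not computed. Counted from the lowest of 12, CEA HT replicate 2 was number 11 in miR-7a-5p and 7 in miR-298-5p. In the PVN, HT + SEA replicate 3 was number 4 in miR-7a-5p and 12 in miR-298-5p. In HT the miR-7a-5p level was 25770, 46992 and 25001 CPM, and in HT + EA it was 41079, 38047 and 33968 CPM. The sum of miR-7a-5p and miR-7b was 27660 to 51180 CPM in HT and 37440 to 45140 CPM in HT + EA. The ciliated-cell miRNAs miR-449a-5p, miR-34b-5p and miR-34c-5p summed to 188 to 956 CPM in HT and 588.5 to 820 CPM in HT + EA. Nearly all of this was again miR-34c-5p, with means of 453 and 703 CPM. The endocrine miRNA miR-375-3p was at 2.88 to 36.4 CPM in HT and 12.2 to 30.1 CPM in HT + EA. Of the 23 markers, 2 did not overlap between these CEA groups, miR-223-3p at 1.24 to 12.5 CPM in HT + EA and 0.886 to 0.912 CPM in HT, and miR-122-5p at 0.618 to 0.671 and 1.01 to 1.07 CPM. The miR-122-5p values rest on 9 to 10 counts a library in HT + EA and 10 to 14 in HT, so these counts met. The miR-223-3p level in HT was about as low. The part of these markers in the CEA difference was not tested.

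Per 1000 reads of miR-7a-5p, miR-298-5p had 1.45 ± 0.152 reads in the PVN and 1.16 ± 0.270 in the CEA (SD, n = 12), and the ranges, 1.12 to 1.74 and 0.743 to 1.60, overlapped. On this scale the CEA groups had 0.913 ± 0.0609 in HT and 1.40 ± 0.199 in HT + EA (SD, n = 3), with 0.845 to 0.962 and 1.20 to 1.60, which did not overlap. In the PVN they had 1.31 ± 0.186 and 1.45 ± 0.0445, with overlapping ranges. How many of all miRNAs separate HT from HT + EA in the CEA on this scale was not computed, so nothing is read from that separation. miR-298-3p had 0.166 ± 0.0176 reads in the PVN and 0.240 ± 0.0446 in the CEA (SD, n = 12), so its mean was lower in the PVN on this scale, while the ranges, 0.134 to 0.200 and 0.160 to 0.301, overlapped. Its CEA values of 0.160 to 0.272 in HT and 0.253 to 0.259 in HT + EA overlapped, with means of 0.201 and 0.255. miR-296-3p had 0.0626 ± 0.0121 in the PVN and 0.0631 ± 0.0201 in the CEA (SD, n = 12), with means of 0.0488 in CEA HT and 0.0796 in CEA HT + EA and ranges, 0.0295 to 0.0671 and 0.0671 to 0.0980, that met at their ends.

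**Figure D4:**
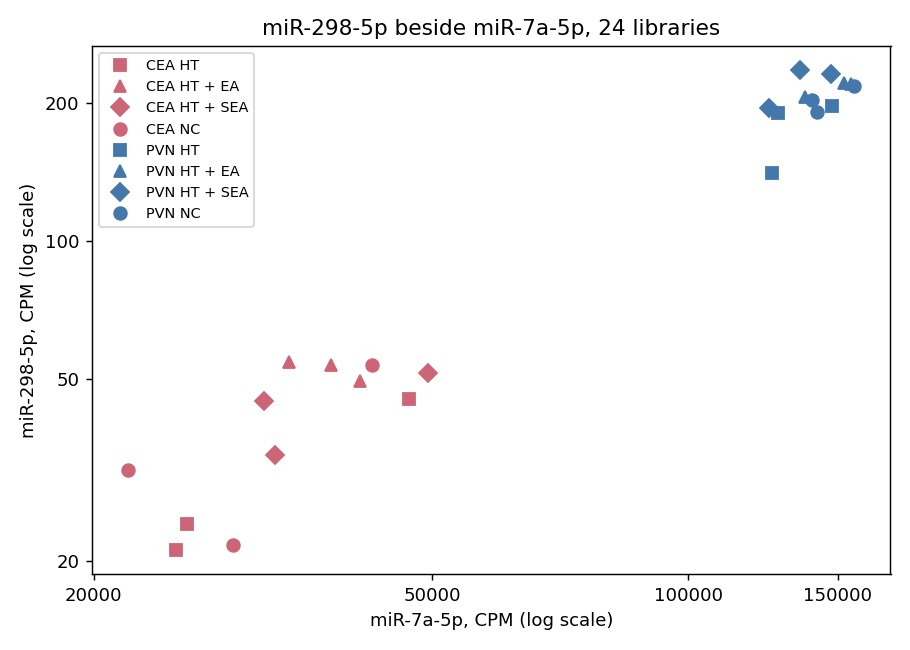
miR-298-5p (y axis, CPM, log scale) against miR-7a-5p (x axis, CPM, log scale) in the 24 libraries, with nucleus by colour and treatment by symbol. The PVN libraries lie apart at the upper right, and in the CEA the 4 libraries lowest in miR-7a-5p, at 29146 CPM or less, are those lowest in miR-298-5p.

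Other miRNAs of imprinted loci outside Dlk1-Dio3 were read from a fixed list of 7 names, of which 3 had counts. miR-335, from the Mest locus, was at 35.5 ± 4.33 CPM in the PVN and 20.6 ± 4.95 CPM in the CEA (SD, n = 12), a log2 fold change of 0.75 (SE 0.10). miR-483-3p and miR-483-5p, from an intron of Igf2, had at most 22 and 17 counts in a library, with log2 fold changes between the nuclei of -0.19 (SE 0.28) and 0.26 (SE 0.33). None of the 3 was called in any of the 8 treatment comparisons or the 2 interactions.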

How the data were processed

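For the 24 libraries, prepared with a NEBNext small RNA kit, the table the authors deposited gives raw counts of reads for each miRNA. The submitters' processing notes name a human build (GRCh38). The study's methods, which cover all its libraries together, name a rat build, mapping by HISAT2 and counting by featureCounts. They do not say whether miRNA reads were handled in this way. How reads were shared between similar miRNAs is not given in the sources used here. A further 24 columns with counts scaled to the library total were not used. The members and lists were chosen with earlier results of these data known. Named were the 4 listed miRNAs, a list of 7 imprinted miRNAs, miRNAs sharing a seed or reads with a member, and the 5 nearest in pattern to miR-298-5p.

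Each comparison was fitted on its 6 libraries with edgeR 4.0.16 (R 4.3.3; TMM, glmQLFit, glmQLFTest) over miRNAs with at least 1 count, with Benjamini-Hochberg adjustment over all of them. The nuclei were compared over 24 libraries with treatment as a covariate. Dividing a log2 fold change by the root of its F statistic gave its standard error. DESeq2 1.42.0, other scalings, a filter, a replicate block and leaving out each library were alternatives. Same-numbered libraries deviated together in each pair only for PVN HT + EA against HT (r = 0.145 to 0.333), CEA HT against NC (0.216 to 0.512), and between the nuclei in NC, HT + EA and HT + SEA. For PVN HT + EA against HT and CEA HT against NC, the block changed no call of a member. The nuclei were compared without calls, and no fit paired PVN with CEA libraries within a treatment. Likeness used 0.5 added to each count. Intervals cover counting error only. Hairpins were folded with RNAfold 2.7.2.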

Additional observations from a re-analysis of the deposited data

How the results depend on the processing

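The difference between the nuclei kept its direction for each member in all 33 alternatives, at 1.70 to 2.27 for miR-296-3p, 2.004 to 2.49 for miR-298-5p and 1.23 to 1.65 for miR-298-3p (log2). Treatment calls depended on the fit, and the cause was not tested. For PVN HT + EA against HT, where 2 members were called, the count was 0 with DESeq2, 0 with its size factors, and 1 with library totals, with filterByExpr and with all 4 groups of the nucleus. It was 0 to 1 when 1 library was left out. For PVN HT + SEA against HT, where 1 was called, it was 0 with DESeq2, 0 with filterByExpr and 0 to 1 without a library. For CEA HT + EA against HT, where 1 was called, it was 2 with library totals, 2 with a replicate block, although same-numbered libraries did not deviate together there (lowest r = -0.246), and 0 to 2 without a library. Where 0 were called, a robust spread gave 1 for PVN HT + EA against HT + SEA. Leaving out a library gave 0 to 1 there, 0 to 2 for CEA HT + SEA against HT and 0 to 1 for the difference of the EA effect between the nuclei. For CEA HT against NC, miR-296-3p gave -0.078 with library totals, -0.0050 with filterByExpr and -0.027 with the replicate block. For the difference of the HT effect, miR-296-3p gave 0.029 and miR-298-5p 0.030 with library totals, and miR-298-3p gave -0.0078 with the replicate block. When 1 library was left out, the ranges that crossed 0 for HT against NC were -0.26 to 0.24 (miR-296-3p, PVN), -0.23 to 0.44 (miR-296-3p, CEA), -0.47 to 0.25 (miR-298-5p, CEA) and -0.35 to 0.13 (miR-298-3p, CEA). For HT + EA against HT + SEA they were -0.10 to 0.025 (miR-298-5p, PVN) and -0.18 to 0.13 (miR-298-3p, CEA). For the difference of the HT effect they were -0.51 to 0.20 (miR-296-3p), -0.50 to 0.26 (miR-298-5p) and -0.24 to 0.26 (miR-298-3p), and for that of the EA effect -0.58 to 0.12 (miR-296-3p). The replicate block changed no other count of called members. In the CEA, miR-296-3p rests on 10 to 50 counts a library, which limits what can be seen of it.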
